A study of Homo sapiens with 7 samples.

Results

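The genes described here are 7 regulators of alternative splicing that are used during development: the muscleblind-like genes MBNL1, MBNL2 and MBNL3, the epithelial splicing regulatory genes ESRP1 and ESRP2, QKI and CELF1. They were taken by name, and all isoforms whose gene identifier starts with the Ensembl ID of one of them were used, which gave 310 of 386982 isoforms and 7 of 14294 genes. The libraries hold polyadenylated RNA of the human embryonic stem cell line HUES66, an established line, read as full-length cDNA by PacBio MAS-Seq in 8-fold arrays on the Revio system. All 7 cultures carry the label piggyBac, a transposon used to insert transgenes, and all received 1 µg/ml doxycycline for 24 h. The line was kept with 10 µM of the ROCK inhibitor Y-27632 in the medium when cells were plated. The control has the genotype WT, and the other 6 have the genotype RBFOX2 isoform KD, a knockdown by Cas13d, a nuclease that is guided to RNA and cleaves it. Those 6 libraries are named by their G numbers, and the labels tie G3 to the RBFOX2 id 178147 and G5 to 178149. G11 goes with 178136, G12 with 178135, G13 with 178145 and G14 with 178146. Which RBFOX2 isoform each id stands for, and which guide was used, is not said in the labels. There was 1 library per group, so differences below lack a replicate check, and the intervals given are for counting error alone.

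These proteins bind short motifs in pre-mRNA and, by where they bind, favour or block the use of nearby exons. ESRP1 and ESRP2 maintain the exon choices of epithelial cells, and QKI is associated with mesenchymal, glial and muscle cells. MBNL proteins favour the exon choices of differentiated tissue, are known to oppose the reprogramming of cells to pluripotency, and act against CELF1 on many heart and muscle transcripts. CELF1 also binds GU-rich elements in the ends of mRNAs and promotes their decay.

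Levels were counted in full-length reads, which carry no molecular identifiers, so that copies made by PCR cannot be told apart. ESRP1 was the most abundant of the 7 genes in each library, CELF1, QKI and ESRP2 were at lower levels, and the MBNL genes were lowest. MBNL1 and MBNL2 were near the limit of detection, and MBNL3 had 22 to 32 reads per library. ESRP1 and QKI were above the control in all 6 G libraries, whereas ESRP2 and CELF1 were above it in G3 and below it in G11, G12, G13 and G14. With a trend of transcript length and GC content subtracted, ESRP1 and ESRP2 in G3 were instead below the control. The gene with the widest range was ESRP2, whose highest level was 5.44 times its lowest. The larger of the 2 annotated QKI-5 isoforms held 63.2 to 74.0% of QKI reads. The share of QKI reads listed with a 5′ end at the second exon was higher in G13 than in the control. With 1 library a group these are descriptions of the libraries.

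The sequences that set the transcript forms below apart are shown first. QKI-5 is the nuclear form of QKI and QKI-6 a form also found in the cytoplasm, and they differ only in the end of their coding sequence. The following stretches are on the plus strand of chr6 in GRCh38 and were copied from the GENCODE 29 transcripts ENST00000361752 (QKI-5) and ENST00000453779 (QKI-6). Both start with the same 30 bases at chr6:163563690-163563719, in lower case, and the capitals mark the form's own coding end up to and including the stop codon TAA.
QKI-5 coding end (capitals from chr6:163566721-163566795 and chr6:163570694-163570710): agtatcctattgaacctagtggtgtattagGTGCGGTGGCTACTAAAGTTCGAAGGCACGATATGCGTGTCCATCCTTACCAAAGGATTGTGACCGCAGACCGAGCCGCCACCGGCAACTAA
QKI-6 coding end (capitals from chr6:163565946-163565971): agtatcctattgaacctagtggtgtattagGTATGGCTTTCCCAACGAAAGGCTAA

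QKI and CELF1 each also have an exon that can begin at either of 2 nearby splice sites. In the lines below the capitals mark the stretch that is kept only when the upstream site is used, and the lower case the 30 bases that follow in both forms. The QKI stretch is on the plus strand and was copied from ENST00000361752. The CELF1 stretch is on the minus strand and was copied from ENST00000531165.
QKI optional exon start (capitals chr6:163563420-163563443): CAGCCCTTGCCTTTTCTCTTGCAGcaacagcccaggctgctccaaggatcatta
CELF1 optional exon start (capitals chr11:47478941-47478952): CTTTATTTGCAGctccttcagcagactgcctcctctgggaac
Both stretches have the length of a whole number of codons (8 in QKI, 4 in CELF1) and end in CAG. They are rich in pyrimidines, with C or T at 18 of 24 positions in QKI and 8 of 12 in CELF1.

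The control was the shallowest library, with 16801842 reads, and G12 the deepest, with 26678538. TPM here is the count per library total, without a length term, and 3 reads, taken as the floor, were worth 0.112 to 0.179 TPM. The table lists only isoforms with at least 1 control read. Isoforms without one are thus absent, and listed reads were 98.1 to 98.6% of the total in the G libraries. This can lower the ratio of a gene to the control. The targeted gene RBFOX2 was at 39.2% of the control in G3 (95% interval 36.0 to 42.7%), 52.2% in G13 (48.5 to 56.1%), and 77.3% to 98.6% in the other libraries. Of 9 pluripotency markers, 8 were in the table and all 8 had a mean of at least 5 TPM, their summed level being 2072 TPM in the control and from 1618 up to 2053 TPM elsewhere; SOX2 had no value. Of 6 epithelial markers, 5 reached 5 TPM, and their list had a summed level of 2948 TPM in the control and of 1359 to 2890 TPM elsewhere. Of 6 mesenchymal markers, 4 reached 5 TPM (1008 TPM summed in the control, 867 to 984 TPM elsewhere), but ZEB1 and ZEB2 were under 1 TPM. No marker of mesendoderm, endoderm, neural cells or heart muscle reached a mean of 5 TPM. The heart muscle marker TNNT2 had 5.36 TPM in the control and 1.15 to 3.08 TPM elsewhere. In such bulk RNA, fewer cells of a type and less RNA per cell cannot be told apart.

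**Figure D1:**
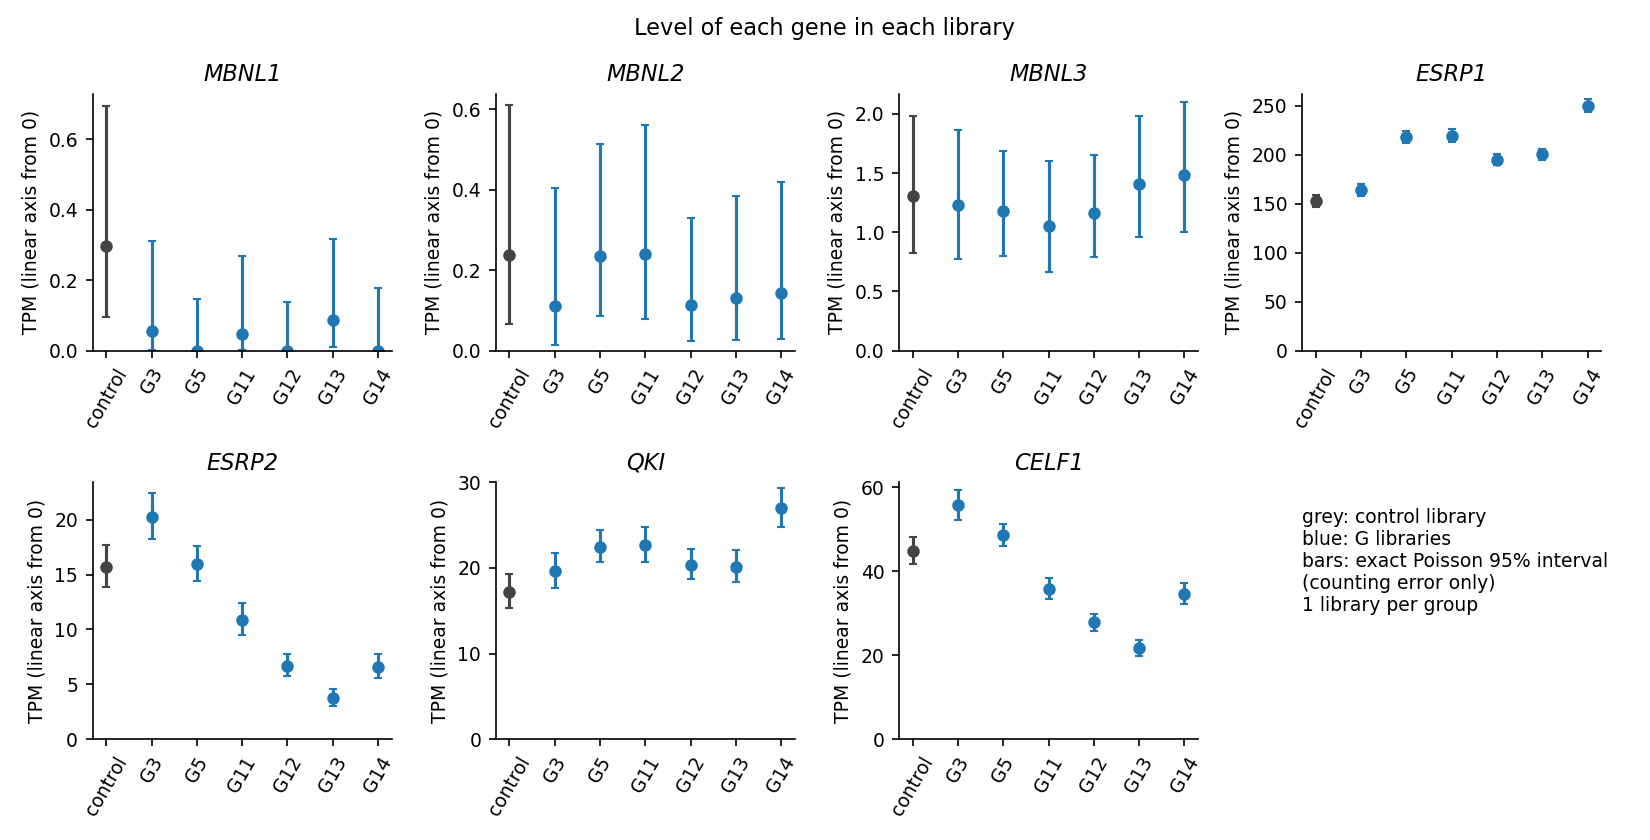
Level of each of the 7 genes in TPM (linear axes from 0, a scale of its own per gene) in the control (grey) and the 6 G libraries (blue), with exact Poisson 95% intervals of the read counts. ESRP2 and CELF1 were lowest in G13, ESRP1 and QKI were highest in G14, and the intervals of the MBNL genes overlap throughout.

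MBNL1, the founding vertebrate member of its family, lies at chr3:152243828-152465780 on the plus strand. It had 5 reads in the control, against 1 in G3, 0 in G5 and 1 in G11, with 0 in G12, 2 in G13 and 0 in G14. Every G library was thus at or under the floor of 3 reads. In the libraries with 0 reads that floor was worth 0.118 TPM (G5), 0.112 TPM (G12) and 0.143 TPM (G14), and the exact Poisson intervals ended at 0.145, 0.138 and 0.176 TPM. Of its 4 isoforms, 3 were seen only in the control, with 1 read each, so the listing rule bears on this gene directly. MBNL2 (chr13:97221434-97394120, plus strand) was represented by a single isoform without a reference ID, with 4 reads in the control, against 2 in G3, 6 in G5, 5 in G11 and 3 in each of G12, G13 and G14. In order of level, the interval of the ratio included 1 for all 6 neighbouring pairs of MBNL2. For MBNL1 it did so in each neighbouring pair with a read, while G5, G12 and G14 had 0 reads and so no ratio among themselves. The ratio of MBNL1 to the control had an interval that ended below 100% in G5 (72.0%), G12 (68.7%) and G14 (87.5%), but 3 of the 5 control reads lie in those isoforms seen only there.

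MBNL3, the family member on the X chromosome (chrX:132369317-132489968, minus strand), held most of the MBNL reads. It had 22 reads in the control, against 22 in G3, 30 in G5 and 22 in G11, with 31 in G12, 32 in G13 and 31 in G14. In TPM these are 1.31 in the control, against 1.23 in G3, 1.18 in G5 and 1.06 in G11, with 1.16 in G12 and 1.40 in G13, and 1.48 in G14. The G libraries lay on both sides of the control, and the widest ratio, 80.7% of the control in G11, had an interval of 42.6 to 153%. MBNL3 made up 71.0% of the MBNL reads in the control (Wilson 95% interval 53.4 to 83.9%) and 78.6 to 91.2% in the G libraries. All 3 genes together were 0.793% of the reads of the 7 genes in the control and 0.462 to 0.656% in the G libraries. On the opposite strand at this locus, RAP2C-AS1 had 7 to 20 reads per library, which were counted apart by the table's gene IDs. The MBNL genes were left out of the counts of 2-fold values, because none reached a mean of 5 TPM.

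MBNL3 was split over 10 isoforms, 4 of them with a reference ID. The largest, without a reference ID and spanning chrX:132379195-132489038, had 9 reads in the control, against 5 in G3, 13 in G5 and 8 in G11, with 8 in G12, 17 in G13 and 10 in G14. Its mean share was 36.4%. ENST00000370853.8 had 2 reads in the control, against 2 in G3, 5 in G5 and 2 in G11, with 4 in G12, 3 in G13 and 10 in G14. Those 10 reads were 32.3% of MBNL3 in G14 (18.6 to 49.9%) against 9.09% in the control (2.53 to 27.8%), so the intervals overlapped. ENST00000698664.1 had 1 to 6 reads per library.

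ESRP1, an RNA-binding protein of epithelial cells that is also expressed in pluripotent stem cells, lies at chr8:94641074-94707466 on the plus strand. Its level was 153 TPM in the control, against 164 in G3, 218 in G5 and 219.7 in G11, with 195 in G12, 200.4 in G13 and 250.2 in G14, from 2570 reads in the control and 2923 to 5549 in the G libraries. All 6 G libraries were above the control, G3 by the least and G14 by the most. As a percentage of the control these levels were 107% in G3 (102 to 113%), 143% in G5 (136 to 149%) and 144% in G11 (137 to 151%), with 127% in G12 (122 to 134%), 131% in G13 (125 to 138%) and 164% in G14 (156 to 172%). In order of level, G12 and G13, and G5 and G11, did not differ beyond counting error, and the other 4 neighbouring pairs did. The median log2 ratio over the 6 libraries was 0.45, no library reached 2-fold, and the medians over all 7877 genes compared ran from -0.21 in G13 to 0.14 in G5. After a trend of transcript length and GC content was subtracted in each library, the median was 0.27 and the value in G3 changed sign, to -0.08.

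The ESRP1 transcripts kept much the same composition across the libraries. Of 84 isoforms, 4 held at least 10% of the reads on average and together 88.3%. ENST00000433389.8 had a share of 36.6% in the control, against 36.9% in G3, 36.2% in G5 and 37.8% in G11, with 39.5% in G12, 38.3% in G13 and 38.2% in G14. ENST00000646773.1 had 24.5% in the control and between 21.6% (G12) and 24.9% (G3) in the others. The remaining 2 have no reference ID, the first of them with 14.9 to 17.4% and the second with 9.61% in the control, 12.5% in G12 (11.6 to 13.4%) and 12.4% in G14 (11.6 to 13.3%). For that second isoform the intervals in G12 and G14 did not overlap that of the control (8.53 to 10.8%). All 84 isoforms began within 1 group of 5′ ends at chr8:94641064-94641240, formed by joining ends within 100 bases. Of the reads, 98.8 to 99.3% ended at chr8:94707463-94707468.

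The 5 annotated ESRP1 isoforms, with 65.2 to 66.0% of its reads per library, differ in internal exons. A 199-nt version of 1 exon, 12 nt longer at its 3′ edge than the 187-nt version, made up 93.0% of these reads in the control and 92.6 to 93.7% elsewhere. The 151-nt exon at chr8:94692677-94692827 was included in 59.5% of them in the control, against 60.2% in G3, 59.5% in G5 and 62.1% in G11, with 65.2% in G12, 62.3% in G13 and 62.7% in G14. In G12 the interval (63.5 to 66.7%) lay above that of the control (57.2 to 61.9%), and the intervals of the other 5 libraries overlapped the control's. The next exon, of 110 nt at chr8:94696852-94696961, followed closely, with 58.2% in the control and 64.3% in G12 (62.7 to 65.9%). Both exons are within the same few isoforms, so they are not separate observations.

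ESRP2, the paralogue with an overlapping set of targets, lies at chr16:68229111-68238102 on the minus strand. It was at 15.7 TPM in the control, against 20.3 in G3, 16.0 in G5 and 10.9 in G11, with 6.71 in G12, 3.73 in G13 and 6.59 in G14, from 264 reads in the control and 85 to 406 in the G libraries. Only G3 was clearly above the control, G5 was level with it, and the other 4 were below it. The ratio to the control was 129% in G3 (110 to 152%), 102% in G5 (86.7 to 119%) and 69.4% in G11 (57.8 to 83.1%), with 42.7% in G12 (35.1 to 51.8%), 23.7% in G13 (18.4 to 30.4%) and 41.9% in G14 (33.9 to 51.7%). The control and G5, and G12 and G14, did not differ beyond counting error. ESRP2 was thus 2-fold lower in 3 libraries, where 8.79% (G12), 14.6% (G13) and 18.9% (G14) of all genes compared were 2-fold lower.

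The ESRP2 values moved when the joint trend of length and GC content was removed. Its listed transcripts had a GC content of 59.6%, above 85.0% of the genes compared. With the length and GC trend subtracted, its log2 ratio went from 0.36 to -0.15 in G3, 0.02 to -0.15 in G5 and -0.51 to -0.10 in G11, with -1.17 to -0.42 in G12, -1.94 to -0.61 in G13 and -1.19 to -0.48 in G14. With libraries scaled by the median of ratios the value in G5 was -0.02. Over isoforms with a reference ID, G13 alone was 2-fold lower, at -1.76, with -0.93 in G12 and -0.96 in G14. With the trend subtracted, ESRP2 was below the control in all 6 libraries and was 2-fold lower in none. On that scale 1.36% (G3) to 7.10% (G14) of all genes compared were 2-fold lower. Length and GC content were not removed separately, and the part of each in the ESRP2 values was not tested.

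**Figure D2:**
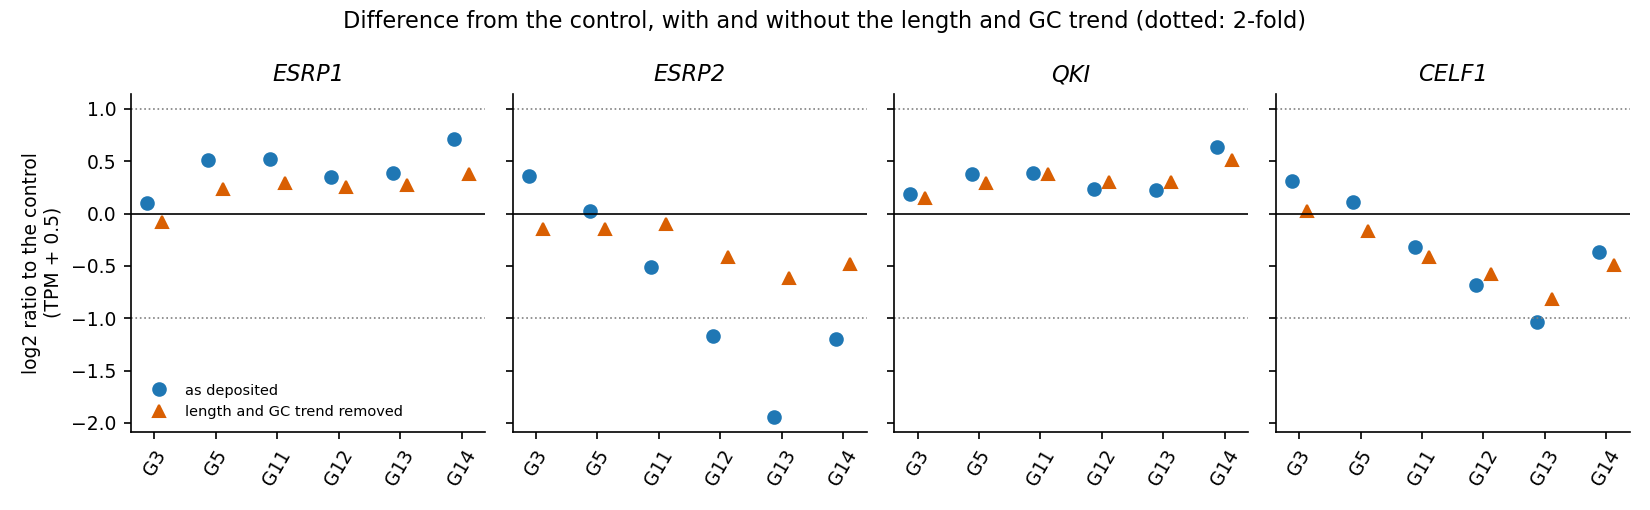
Log2 ratio of each G library to the control on the log2(TPM + 0.5) scale for ESRP1, ESRP2, QKI and CELF1, as deposited (circles) and after a trend of transcript length and GC content was subtracted (triangles). Dotted lines mark 2-fold. For ESRP2 in G13 the value moved from -1.94 to -0.61, and for QKI in G3 from 0.18 to 0.15.

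ESRP1 and ESRP2 therefore differed in their balance. ESRP2 was 9.32% of the reads of both genes in the control (8.30 to 10.4%), against 11.02% in G3 (9.99 to 12.1%), 6.82% in G5 and 4.73% in G11, with 3.33% in G12, 1.83% in G13 (1.48 to 2.25%) and 2.57% in G14. The interval of G3 overlapped that of the control, and those of the other 5 libraries lay below it. Among the 27 ESRP2 isoforms, ENST00000473183.7 had 78.4% of the reads in the control (73.1 to 82.9%), against 93.9% in G3, 91.9% in G5 and 86.8% in G11 (81.8 to 90.6%), with 93.3% in G12, 88.2% in G13 (79.7 to 93.5%) and 92.8% in G14. The control was lowest, and its interval overlapped those of G11 and G13. This isoform was the only 1 with its 3′ end at chr16:68227046. The 18 isoforms with 3′ ends at chr16:68229034-68229208 held 18.6% of reads in the control (14.3 to 23.7%) and 6.08 to 11.9% in the G libraries. The difference in share thus goes with a difference in listed 3′ ends. Of the 27 isoforms, 16 had a read in the control only, and these 16 reads were 6.06% of ESRP2 in the control, a share that the listing rule gives to no other library.

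**Figure D3:**
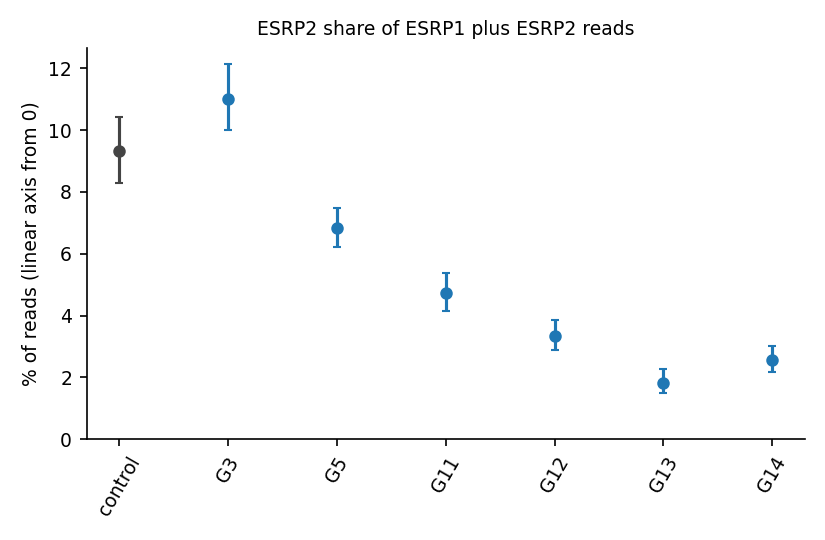
Share of ESRP2 in the summed reads of ESRP1 and ESRP2 (linear axis from 0) in the control (grey) and the G libraries (blue), with Wilson 95% intervals. The share was 9.32% in the control and 1.83% in G13.

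QKI, a STAR-family RNA-binding protein known for roles in myelination, blood vessel formation and the formation of circular RNAs, lies at chr6:163414000-163578596 on the plus strand. Its level was 17.2 TPM in the control, against 19.6 in G3, 22.5 in G5 and 22.7 in G11, with 20.4 in G12, 20.1 in G13 and 27.0 in G14, from 289 reads in the control and 350 to 572 in the others. The control was lowest and G14 highest, but of 6 neighbouring pairs in this order only G11 and G14 differed beyond counting error. The ratio was 114% in G3 (97.3 to 134%), 131% in G5 (113 to 151%) and 132% in G11 (114 to 153%), with 119% in G12 (103 to 137%), 117% in G13 (101 to 136%) and 157% in G14 (136 to 182%). The interval thus excluded 100% in 5 of 6 libraries, and no library reached 2-fold. The median log2 ratio of 0.31 was 0.30 with the length and GC trend subtracted, and QKI was above the control in all 6 libraries on both scales.

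QKI-5 was the main QKI transcript in each library. The isoform ENST00000361752.8, whose coding end is shown above and which encodes 341 residues, had 196 reads in the control, against 259 in G3, 422 in G5 and 302 in G11, with 378 in G12 and 290 in G13, and 387 in G14. These were 67.8% of QKI reads in the control (62.2 to 72.9%) and between 63.2% in G13 (58.7 to 67.5%) and 74.0% in G3 (69.2 to 78.3%) in the G libraries, all overlapping the control. QKI-6, of 319 residues, had 7 reads in the control, against 7 in G3, 10 in G5 and 12 in G11, with 8 in G12, 9 in G13 and 7 in G14. Of the reads of the 3 annotated isoforms, QKI-6 was 3.24% in the control (1.58 to 6.54%) and 1.65 to 3.44% in the G libraries, with no difference detectable at this depth. A QKI-7 reference isoform was not among the rows used here.

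The optional 24 bases of QKI were kept in most annotated reads. The form with them was 94.0% of these reads in the control (90.0 to 96.4%), against 94.3% in G3, 92.1% in G5 and 90.0% in G11 (86.4 to 92.7%), with 91.5% in G12, 93.7% in G13 and 92.7% in G14. All 6 intervals overlapped that of the control. The QKI-5 isoform without the 24 bases, ENST00000361195, encodes 333 residues.

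QKI isoforms listed with a 5′ end at the second exon took a varying share. The largest of them has no reference ID and spans chr6:163455277-163573798, and it had 37 reads in the control, against 49 in G3, 58 in G5 and 88 in G11, with 103 in G12 and 111 in G13, and 100 in G14. The 5 isoforms with that 5′ end had 14.5% of QKI reads in the control (10.9 to 19.1%), against 14.6% in G3 (11.3 to 18.7%), 10.8% in G5 (8.55 to 13.7%) and 19.5% in G11 (16.2 to 23.3%), with 19.7% in G12 (16.5 to 23.2%), 25.1% in G13 (21.3 to 29.2%) and 18.7% in G14 (15.7 to 22.1%). G13 was highest, and its interval was the one that lay apart from the control's. The 3′ end at chr6:163573794-163573841 held 81.7% of reads in the control (76.8 to 85.7%) and 82.6 to 88.8% in the G libraries, where G12 (85.9 to 91.2%) lay above the control's interval. When only ends within 25 bases were joined, that group came apart and its larger piece held 63.2 to 74.0% over the 7 libraries. Each row has a single pair of ends, and how these were chosen is not given in the sources used here. A start of transcription at the second exon and reads with an incomplete 5′ end therefore cannot be told apart.

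CELF1, which binds GU-rich sequence and acts on both splicing and mRNA decay, lies at chr11:47465933-47565569 on the minus strand. Its level was 44.8 TPM in the control, against 55.7 in G3, 48.6 in G5 and 35.8 in G11, with 27.8 in G12, 21.6 in G13 and 34.7 in G14, from 753 reads in the control and 492 to 1236 in the others. G3 was highest and G13 lowest, with G5 and the control between G3 and G11. The ratio was 124% in G3 (113 to 137%), 108% in G5 (98.9 to 119%) and 79.9% in G11 (72.1 to 88.5%), with 62.1% in G12 (56.0 to 68.8%), 48.2% in G13 (42.9 to 54.0%) and 77.3% in G14 (69.7 to 85.8%). The control and G5, and G11 and G14, did not differ beyond counting error. CELF1 was 2-fold lower in G13 alone, at a log2 ratio of -1.04, which was -0.88 when libraries were scaled by the median of ratios and -0.81 with the length and GC trend subtracted. With that trend subtracted the median log2 ratio was -0.46 against -0.34, and G5 changed sign from 0.11 to -0.17. The listing rule also bears on these levels, since isoforms seen only in the control were 7.17% of its CELF1 reads. Isoforms read in all 7 libraries held 80.9% of CELF1 reads in the control and 91.1 to 93.7% in the G libraries. Over those isoforms each ratio to the control is therefore higher than given here, and the G13 value is close to the 2-fold limit. PTPMT1, on the opposite strand at this locus, had 538 to 1165 reads, counted apart by the table's gene IDs.

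CELF1 was the most finely divided of the genes, with 156 isoforms, of which 2 reached a mean share of 10%. Both begin at chr11:47553141 and end at the nearer of the main 3′ ends, and neither has a reference ID. The first had a share of 9.03% in the control (7.19 to 11.3%), against 11.2% in G3, 10.1% in G5 and 10.99% in G11, with 14.2% in G12 (11.8 to 16.8%), 14.2% in G13 (11.4 to 17.6%) and 15.4% in G14 (12.98 to 18.2%). The share in the control was lowest, and the intervals in G12, G13 and G14 lay above the control's. The second had 9.16% in the control and 8.94 to 11.6% in the G libraries, all overlapping the control.

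Most CELF1 reads shared a group of 5′ ends and ended at either of 2 main places downstream of the stop codon. The 5′ end group at chr11:47553053-47553141 held 96.5% of reads in the control and 98.0 to 98.9% in the G libraries. The nearer 3′ end group at chr11:47470330-47470341 held 64.0% in the control (60.5 to 67.4%), against 63.1% in G3, 60.8% in G5 and 66.2% in G11, with 66.3% in G12, 68.3% in G13 and 71.3% in G14 (68.0 to 74.5%). G14 was the library whose interval lay above the control's. The farther group at chr11:47465934-47465945 held 26.2% in the control and 22.2 to 29.1% in the G libraries. The stop codon of both annotated coding transcripts examined is at chr11:47472230-47472232, upstream of both groups.

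The optional 12 bases of CELF1 were seldom kept, and the reads that show it are few. Of the reads of the 3 annotated isoforms that hold the exon, the longer form had 1 of 65 in the control, 1 of 98 in G3, 12 of 140 in G5 and 10 of 66 in G11, with 1 of 59 in G12, 5 of 43 in G13 and 5 of 66 in G14. In G11 this was 15.2% (8.44 to 25.7%) and in the control 1.54% (0.272 to 8.21%), so the control's interval ended below G11's. The intervals of the other 5 libraries overlapped the control's. These reads are 7.95 to 11.3% of CELF1, since most of its isoforms carry no reference ID and their exons are not listed.

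**Figure D4:**
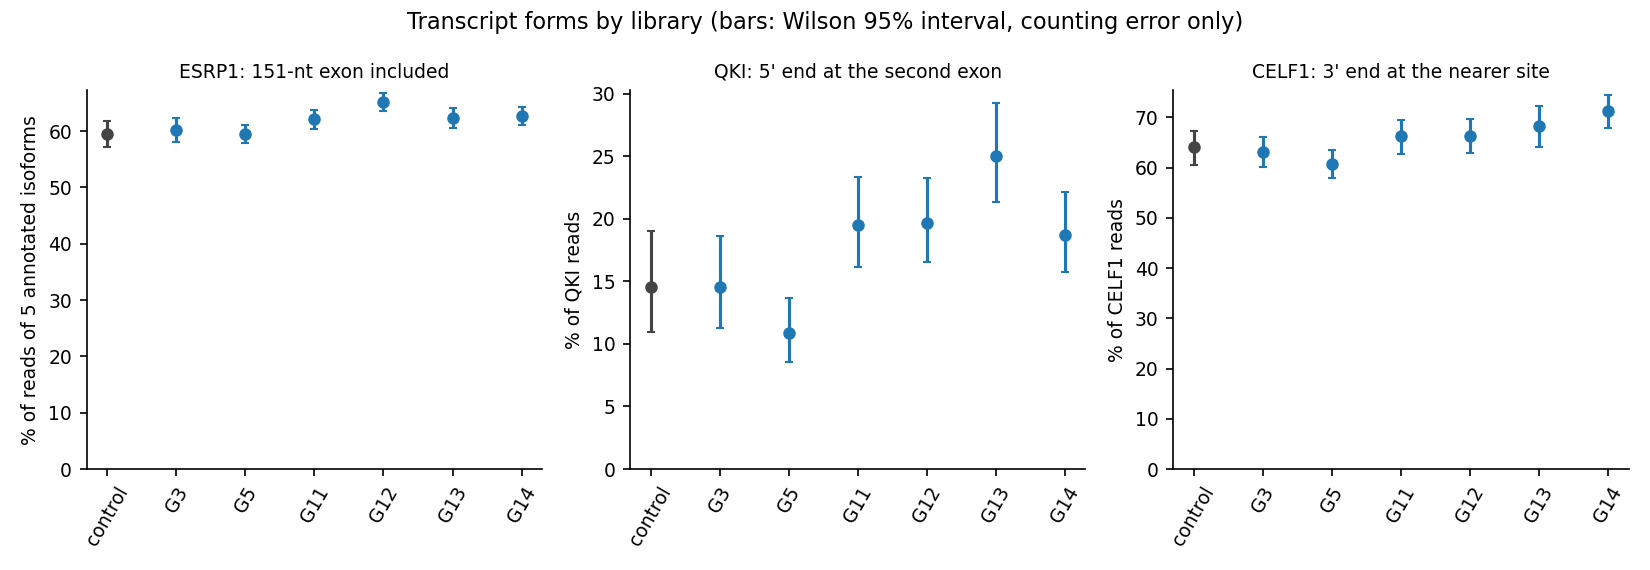
Share of 3 transcript forms by library (linear axes from 0; Wilson 95% intervals): inclusion of the 151-nt ESRP1 exon in the reads of its 5 annotated isoforms, the 5′ end at the second exon in QKI reads, and the nearer 3′ end in CELF1 reads. G12 stood at 65.2% for the ESRP1 exon, G13 at 25.1% for the QKI 5′ end and G14 at 71.3% for the CELF1 3′ end.

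Across the 4 genes that reached a mean of 5 TPM, 4 of 24 values were 2-fold lower than the control (ESRP2 in G12, G13 and G14, and CELF1 in G13) and 0 of 24 were 2-fold higher. Of all genes compared, 5.14% in G3, 10.1% in G5 and 10.4% in G11 were 2-fold lower, besides the shares given above for G12, G13 and G14. The corresponding shares that were 2-fold higher were 1.89% in G3, 0.533% in G5 and 0.724% in G11, with 0.546% in G12 and 1.04% in G13, and 3.97% in G14. The count of 2-fold lower values is to be read against these backgrounds of 5.14 to 18.9%. It became 0 of 24 with the length and GC trend subtracted. On that scale 1.36% (G3) to 7.10% (G14) of all genes compared were 2-fold lower.

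The total variation distance was used for isoform usage. It is the summed absolute difference in a gene's isoform shares from the control, divided by 2, so that 0 means equal shares and 1 no common isoform. For CELF1 it was 0.207 in G3, 0.202 in G5 and 0.215 in G11, with 0.212 in G12, 0.253 in G13 and 0.230 in G14. A distance of at least 0.2 was found for 9.56% of genes in G3, 9.25% in G5 and 10.8% in G11, with 11.1% in G12 and 14.8% in G13, and 14.6% in G14. The distance was 0.112 to 0.172 for ESRP2, 0.0903 to 0.140 for QKI and 0.0379 to 0.0772 for ESRP1, so CELF1 alone of the 4 was past 0.2, in all 6 libraries. All 6 CELF1 values fell under 0.2 when only isoforms with a read in each of the 7 libraries were used, with a median of 0.133 against 0.213. Of all genes compared, 2.77% (G5) to 6.72% (G13) then had a distance of at least 0.2. In the control, 53 of the 156 CELF1 isoforms had reads that no G library had, and these were 7.17% of its CELF1 reads. The corresponding share was 4.84% for QKI and 0.545% for ESRP1.

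Among the 4 genes, levels over the 7 libraries were most alike for ESRP2 with CELF1 and for ESRP1 with QKI. On the log2(TPM + 0.5) scale Pearson's r was 0.97 for ESRP2 with CELF1 and 0.94 for ESRP1 with QKI, but -0.48 for ESRP1 with ESRP2. These are descriptions over 7 libraries, and the length and GC trend was not subtracted for them. The share of all gene pairs with such values is not given here. Within a library the levels of all genes are divided by the same total and are subject to the composition trends of that library. Of 5219 genes with a mean of at least 20 TPM, the most alike were TAF9B and ETF1 for ESRP1 (r = 0.998 and 0.996), ALDH16A1 and SUPT5H for ESRP2 (0.997 and 0.996), RPA1 and RFX5 for QKI (0.997 and 0.996), and PATZ1 and CDK16 for CELF1 (0.993 for both). In the same order, the GC contents of these genes were 37.4% and 42.7% beside 42.7% for ESRP1, and 64.9% and 58.1% beside 59.6% for ESRP2. They were 48.2% and 53.0% beside 39.4% for QKI, and 58.9% and 59.4% beside 47.6% for CELF1.

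Other tissue-regulated splicing factors were counted in the same way. Of 32 listed, 29 were in the table and 17 reached 5 TPM. Of all genes compared, 5.14% (G3) to 18.9% (G14) were 2-fold lower and 0.533% (G5) to 3.97% (G14) 2-fold higher. Of the 17 factors, 1 was 2-fold higher in G3 and none in the other 5 libraries. Lower by 2-fold were 1 in each of G3, G11 and G12, 2 in G13, and 0 in G5 and G14. In G3 the higher one was KHDRBS1 and the lower one the targeted RBFOX2. Their median log2 ratio ran from -0.23 in G12 and G13 to 0.23 in G5. The factors with the largest median ratio in absolute size were KHDRBS1, which encodes the RNA-binding protein SAM68, at -0.92 (from -1.93 to 1.48), PTBP3 at -0.51 (from -0.97 to 0.12) and PTBP1, a repressor of neuronal exons, at -0.51 (from -1.44 to 0.61). None of these 3 had the same sign in all 6 libraries. The paralogue CELF2 had 7.74 TPM in the control and, over the G libraries, 8.997 to 11.1 TPM.

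Genes whose splicing is studied as a target of these regulators were mostly too low to compare: 22 of 25 were in the table and 9 reached 5 TPM. Their median usage distance was 0.116 to 0.142, against 0.0616 to 0.0763 over all genes compared. The largest median distances were those of NFASC (0.263, with a level of 4.74 to 11.2 TPM), ENAH, a regulator of actin with an exon specific to epithelial cells (0.180), and MEF2A, a muscle transcription factor (0.170). Of all genes compared, 9.25% (G5) to 14.8% (G13) had a distance of at least 0.2. Of the 9 listed genes, 1 had such a distance in each of G3, G5, G12, G13 and G14, and 2 in G11. The distance grows as reads per gene fall, and the part of depth in these values was not tested. FGFR2, the classical ESRP target, had a mean of 0.453 TPM and CD44 of 1.92 TPM, so their epithelial and mesenchymal forms could not be compared.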

How the data were processed

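Each isoform of the deposited table has, per the file headers, counts of full-length reads and TPM in 7 libraries. The submitters' processing notes name minimap2 2.17 and GRCh38 (hg38). The isoform caller is not given in the sources used here. The TPM deposited by the authors equal count divided by library total, to within 0.01. Missing values were taken as 0.

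Gene levels are sums over isoforms whose gene ID has the same Ensembl stem. Levels were compared as log2(TPM + 0.5) over genes with a mean of at least 5 TPM, so ratios of low genes are understated. With 1 library per group no p-value was computed. Intervals at 95% are exact Poisson (levels), exact Clopper-Pearson (ratios) and Wilson (shares). Reads carry no molecular identifiers. Ends within 100 bases were joined. Exons came from GENCODE 29 transcripts matched by ID without version. Length and GC content came from the same transcripts and were known for 7736 of 7877 genes.

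The genes named are the 7 regulators, isoforms with at least 10% of a gene on average (at most 5), the 2 genes with the highest r per regulator, up to 3 per other list by median ratio or usage distance, and RBFOX2; CELF2, FGFR2, CD44, TNNT2 and genes overlapping a locus were added after their values were seen. Members and lists were chosen with earlier results of these data known. Calculations used Python 3.11.15, numpy 2.4.6, pandas 2.3.3, SciPy 1.17.1 and matplotlib 3.10.9 and were tested on simulated data. Alternatives changed the pseudocount, scaling, isoform set, reference library, filter, fold and end joining, and left out each G library.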

Additional observations from a re-analysis of the deposited data

How the results depend on the processing

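No paired analysis was possible because each group has a single library. The median log2 ratios of ESRP1, ESRP2, QKI and CELF1 kept their sign in each alternative run; that of MBNL3 (-0.085) became 0.083 with reference IDs only and 0.060 with isoforms read in all 7 libraries. With the length and GC trend subtracted, the median log2 ratio was 0.27 for ESRP1 and -0.28 for ESRP2. Of 24 values 0 were then 2-fold lower, beside 1.36 to 7.10% of all genes per library. Against the median of the other 6 libraries the medians were 0.050 (ESRP1), -0.42 (ESRP2), 0.043 (QKI) and -0.17 (CELF1), with 1 value 2-fold higher and 1 lower. Of all genes, 0% (G11) to 9.76% (G3) were then 2-fold higher and 0.0889% (G5) to 8.18% (G13) lower. With 1 G library omitted at a time the range was -1.17 to -0.51 for ESRP2. The CELF1 median was -0.14 over isoforms of at least 1 TPM and -0.16 over isoforms read in all 7 libraries. The count of 4 lower values was 1 with reference IDs only (5.27 to 17.7% of all genes per library). It was 1 with isoforms of at least 1 TPM (5.07 to 17.6%) and 3 with isoforms read in all 7 libraries (4.84 to 17.2%). It was also 1 of 18 with a mean of at least 20 TPM, and 2 of 16 without G3 and G13. At 1.5-fold, 2 values were higher and 5 lower. Shares of all genes at 1.5-fold and at a mean of at least 20 TPM are not given here. The usage count of 6 was 0 with isoforms of at least 1 TPM (1.65 to 4.05% of all genes per library). It was 0 with isoforms under 5% pooled (4.01 to 7.36%) and 0 with reference IDs only (1.28 to 2.65%). Against the pooled reads of the other 6 libraries it was 0 (1.16 to 5.87%). With isoforms read in all 7 libraries it was 0 as well (2.77 to 6.72%). That last isoform set and the omission of G3 and G13 were chosen after seeing the data. The remaining 73 of 100 leading values moved by less than the counting interval, or for counts by less than 1.5 times. Depth limits MBNL1, MBNL2 and MBNL3 most; for the other changes the cause was not tested.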
